A study of Homo sapiens with 6 samples.

Results

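The leukocyte tetraspanins described here are 10 genes, CD37, CD53, CD81, CD82, CD9, CD63, CD151, TSPAN3, TSPAN14 and TSPAN33, taken by gene name from a table of 58735 genes, in which each stood on 1 row. They were measured in Raji, a human B-cell line from a Burkitt lymphoma, in cells labelled as carrying a GFP and firefly luciferase reporter. Bryostatin-1, a marine macrolide and ligand of protein kinase C, was given at 1 nM overnight at 37 °C, and the treated cells gave 3 libraries of polyadenylated RNA, and cells kept with the solvent DMSO gave the other 3. All 6 libraries come from the same reporter line, a single tumour line grown in medium with 10% serum, and the labels do not say whether replicates were separate cultures. P-values therefore measure only the spread between these libraries, which may be technical.

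Tetraspanins are small proteins that pass repeatedly through the membrane and hold partner proteins, such as integrins, receptors and proteases, in shared membrane domains. CD37 and CD53 are largely restricted to leukocytes, whereas CD9, CD63, CD81 and CD151 occur in most tissues. CD81 is an entry receptor of hepatitis C virus, CD53 has been reported in B cells to bring protein kinase C beta to the membrane after B-cell receptor engagement, and loss of CD37 in mice weakens antibody responses. TSPAN14 and TSPAN33 belong to the TspanC8 group, named for the cysteines of its large extracellular loop, which escorts the metalloprotease ADAM10 to the cell surface.

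The large loop carries the hallmark of the family, a Cys-Cys-Gly motif. In the coding sequence of the principal GENCODE 29 transcript, all 10 genes held Cys-Cys-Gly codons whose first cysteine was codon 144 to 156, in proteins of 219 to 283 amino acids. CD81, CD9 and CD63 held a second such triplet elsewhere. The windows are shown for CD53, the most abundant of the 10, and for the 4 genes whose bryostatin and DMSO libraries did not overlap, with the motif codons in capitals.
CD53: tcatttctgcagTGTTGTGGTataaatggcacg
CD37: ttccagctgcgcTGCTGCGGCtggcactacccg
CD81: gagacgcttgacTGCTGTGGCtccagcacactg
CD151: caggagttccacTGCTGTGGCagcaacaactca
TSPAN3: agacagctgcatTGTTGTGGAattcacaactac
The first cysteine is codon 144 in CD53, 152 in CD37, 156 in CD81, 155 in CD151 and 147 in TSPAN3. TGC or TGT codes for cysteine, so the motif is written with different codons, TGTTGTGGT in CD53 and TGCTGCGGC in CD37. All 5 windows are spliced from neighbouring exons of hg38 and read along the gene's strand: chr1:110895050-110896679 on the plus strand for CD53, chr19:49338024-49338726 (plus) for CD37, chr11:2395515-2395895 (plus) for CD81, chr11:837349-837486 (plus) for CD151 and chr15:77052903-77054183 (minus) for TSPAN3.

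The libraries held 19405370 to 21406275 reads on genes with bryostatin and 19883563 to 24468270 with DMSO. These reads were recovered from FPKM (fragments relative to the length of the gene and a scaling of the library, which here was not the total of reads on genes). Each of the 10 genes rested on at least 113 reads in every library. All 8 B-cell markers checked, among them CD79A, MS4A1 and PAX5, were at 1 FPKM or more, while the T-cell gene CD2, the NK-cell genes KLRD1, NCAM1 and NCR1, the platelet genes PF4, PPBP and GP9 and the myeloid gene S100A8 were listed at 0 in all 6 libraries. Of the T-cell, NK-cell and platelet lists 1 gene each averaged 1 FPKM or more. TRAC was at 3.28 to 13.5 FPKM with bryostatin and 3.12 to 11.5 FPKM with DMSO, and NKG7 was at 1.82 to 3.12 FPKM with bryostatin and 1.92 to 4.54 FPKM with DMSO. GP1BA was at 1.04 to 1.71 FPKM with bryostatin and 0.978 to 1.86 FPKM with DMSO. Of 4 plasma-cell genes, 2 averaged 1 FPKM or more. XBP1 was at 27.2 to 29.9 FPKM with bryostatin and 26.3 to 31.1 FPKM with DMSO, and TNFRSF17 at 0.424 to 1.52 FPKM and 0.857 to 1.89 FPKM. Their part in the results was not tested. The myeloid list summed to 0.136 to 0.374 FPKM with bryostatin and 0.262 to 0.428 with DMSO. DMSO replicate 3 stood apart from its group: the chi-square per gene of its reads against the other DMSO libraries was 37.6 and 38.9, against 18.6 between those 2 libraries and 11.6 to 22 within bryostatin. Values without it are given for CD37, CD81, CD151, CD63, CD82, TSPAN14 and TSPAN33.

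CD53 and CD37, the leukocyte-restricted pair, were the most abundant tetraspanins. Per length, CD53 averaged 236 ± 85.0 FPKM with bryostatin and 229 ± 71.2 FPKM with DMSO (SD, n = 3 each), and it ranked 127th of 19950 protein-coding genes by its mean over the 6 libraries. CD37 averaged 74.9 ± 9.72 FPKM with bryostatin and 97.9 ± 10.1 FPKM with DMSO, at rank 364. Below them came CD82 (rank 711), CD81 (1175), CD63 (2140), TSPAN3 (3062), CD151 (3809), TSPAN33 (4069), TSPAN14 (4743) and CD9 (8069). CD53, CD37, CD82 and CD81 took places 1 to 4 in that order in all 6 libraries, and CD9 was lowest in all 6. CD82 and CD81 were nonetheless nearly level in DMSO replicate 3, at 33.8 FPKM each. CD63, TSPAN3, CD151, TSPAN33 and TSPAN14 lay between, and CD63 and TSPAN3, TSPAN3 and CD151, CD151 and TSPAN33, and TSPAN33 and TSPAN14 overlapped in their libraries. CD53 alone made up 37.9% to 56.5% of the summed FPKM of the 10 genes with bryostatin and 44.2% to 53.2% with DMSO.

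**Figure D1:**
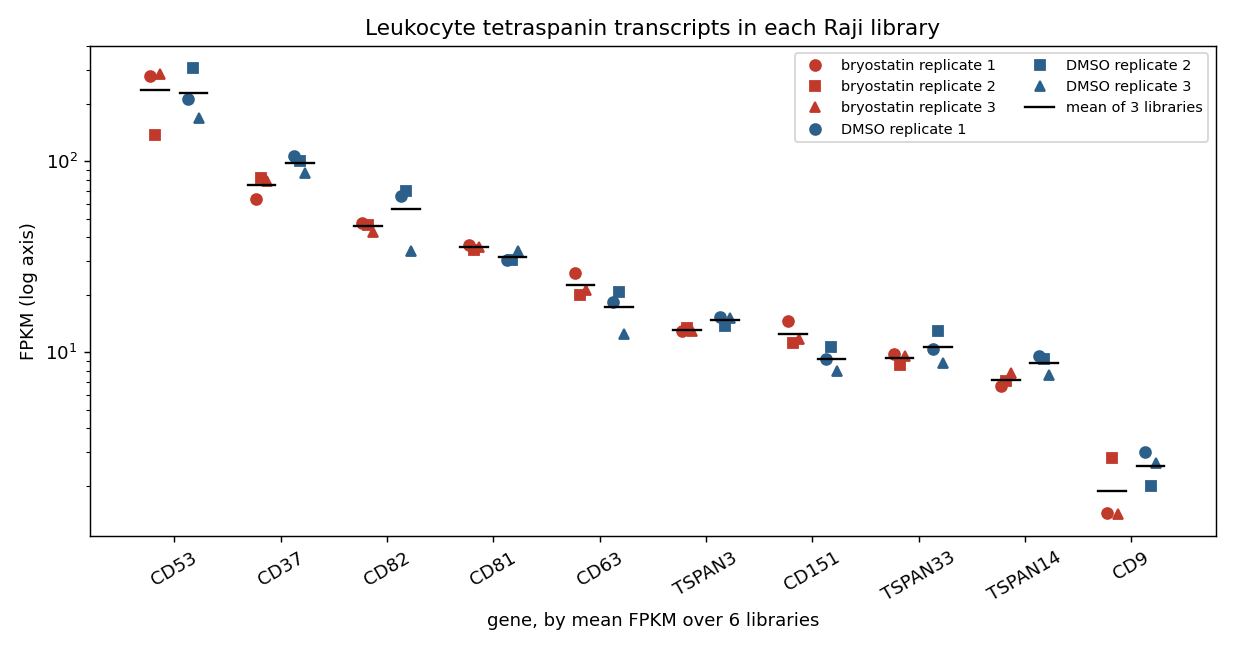
FPKM of each leukocyte tetraspanin (log axis) in the 3 bryostatin libraries (red, left) and the 3 DMSO libraries (blue, right), with a marker shape for each replicate number and a bar at the mean of 3 libraries. CD53 and CD37 lie at the top and CD9 at the bottom in every library, and CD37, TSPAN3, CD81 and CD151 show no overlap between the groups.

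The order depends in part on the length that reads are divided by. The deposited lengths are those of all merged exons of a gene, which for CD81 come to 7394 bases, against 1520 in its principal transcript, and for CD37 to 4161 against 1265. With the length of the principal transcript, an alternative chosen after seeing the data, 6 of the 10 genes kept their place. CD81 passed CD82 (164 and 91.2 reads scaled by that length and by the total of reads on genes) and CD151 passed TSPAN3 (26.0 and 18.4). CD53 and CD37 then stood much closer, at 321 and 287, than in the deposited FPKM. Which transcripts the cells use was not measured, so neither length is a measured one. The ratio of FPKM between treatments does not depend on this choice, since the length is the same in every library, but a change of log2(FPKM + 1) does, through the added 1.

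**Figure D2:**
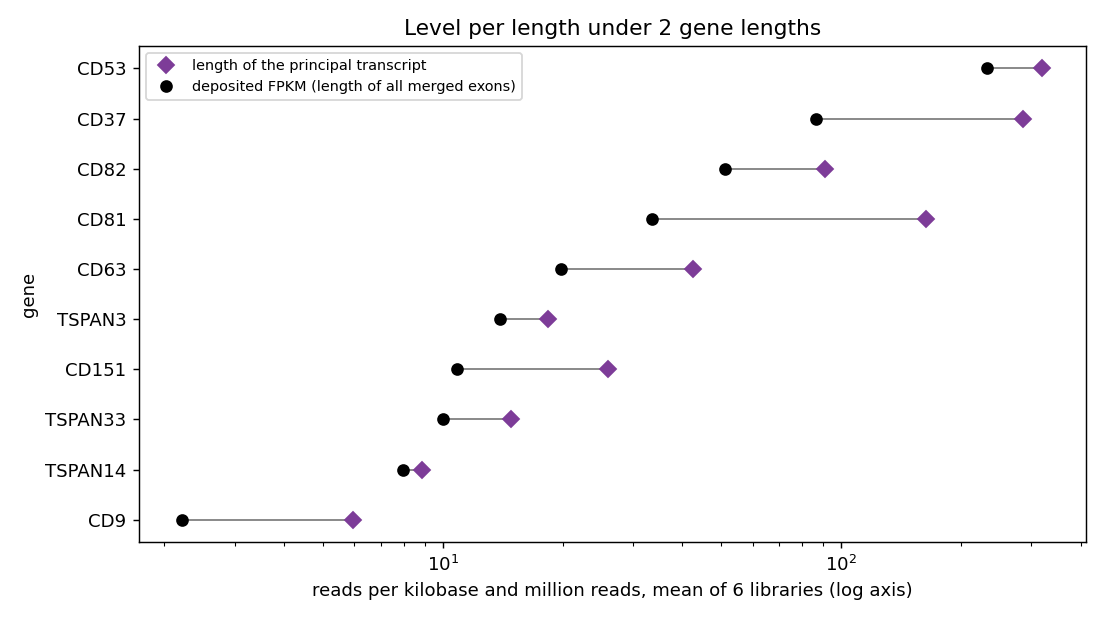
Mean level over the 6 libraries (log axis, reads scaled by length and by library) with the deposited length of all merged exons (black circles) and with the length of the principal transcript (purple diamonds). CD81 and CD37 shift the most to the right and TSPAN14 and TSPAN3 the least, and CD53 leads with either length.

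The design asks how the transcripts of cells given bryostatin compare with those of cells given DMSO. CD37 and TSPAN3 were lower, and CD81 and CD151 higher, in all 3 bryostatin libraries than in any of the 3 DMSO libraries, while the other 6 genes overlapped. None of the 10 passed an adjusted p of 0.05 in limma, as was true of all 11071 genes tested (0% called), so none of these differences is established beyond the spread between libraries. At an unadjusted p under 0.05, 2 of the 10 were lower (CD37 and TSPAN14) and 1 higher (CD151), where 7.18% of all tested genes were lower and 10.5% higher at that level (17.6% in either direction). These counts rest on single libraries: none of the 10 was at that level without bryostatin replicate 1 or without DMSO replicate 1, with 913 and 969 of all genes, and 5 were without DMSO replicate 3 (CD37, CD81, CD82, TSPAN14 and TSPAN33), with 2861 of all genes, against 1954 over all 6 libraries. Without overlap between the groups were 4 of the 10, where 23.6% of all tested genes were (12.9% higher and 10.7% lower). The median log2 change of the 10 genes was -0.16, beside 0.02 over all genes tested. The smallest two-sided p that an exact permutation test of 3 and 3 libraries allows is 0.1. All changes below are bryostatin over DMSO of log2(FPKM + 1), a scale on which the change of a weakly expressed gene such as CD9 comes out too small.

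CD37, the B-cell tetraspanin targeted by therapeutic antibodies, was at 63.9, 82.1 and 78.8 FPKM in bryostatin replicates 1 to 3, against 106, 101 and 86.6 FPKM in DMSO replicates 1 to 3. The groups do not overlap, and bryostatin replicate 1 and DMSO replicate 3 lie farthest from their own groups, the first low and the other near the bryostatin libraries. The log2 change was -0.38 ± 0.13 (SE), a 1.31-fold lower level, with a 95% interval from -0.69 to -0.08 (adjusted p = 0.232 in limma). Leaving out each library in turn gave -0.47 (without DMSO replicate 3) to -0.27, and the interval took in 0 without bryostatin replicate 1, DMSO replicate 1 or DMSO replicate 2. In bulk RNA, fewer cells with a transcript and less of it per cell cannot be told apart. The gene, ENSG00000104894, lies on chromosome 19 from 49335171 to 49343335 (hg38) and shares 319 exon bases with TEAD2 on the opposite strand, which was at 0.232 ± 0.108 FPKM with bryostatin and 0.200 ± 0.0966 FPKM with DMSO.

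CD53, which takes part in lymphocyte homing in mice, was at 281, 137 and 288 FPKM with bryostatin, against 212, 308 and 169 FPKM with DMSO. Both groups held high and low libraries: bryostatin replicate 2 was the lowest of all 6 and DMSO replicate 2 the highest, and the levels of the 6 libraries spanned 2.24-fold. Its log2 change was 0.01 with a 95% interval from -0.77 to 0.79 (adjusted p = 0.994 in limma). A 1.5-fold change either way lies inside that interval, and the sign turned under several settings given at the end. With at least 5920 reads per library, counting error alone would give a coefficient of variation of about 1.3%, against 36.1% between bryostatin and 31.0% between DMSO libraries.

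CD81, found in most tissues and a receptor of hepatitis C virus, was at 36.6, 34.3 and 35.6 FPKM with bryostatin, against 30.2, 30.4 and 33.8 FPKM with DMSO. Every bryostatin library was above every DMSO library, by a margin that is narrow at DMSO replicate 3. On the log2 scale the change was 0.17 ± 0.08 (SE), 1.13-fold higher, with a 95% interval from -0.03 to 0.37 (adjusted p = 0.325 in limma). Without DMSO replicate 3 it was 0.22, with an interval from 0.043 to 0.40 (adjusted p = 0.135). It was 0.07 with quantile normalisation, and with TPM scaling the groups overlapped.

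CD151, which binds laminin-binding integrins and carries the Raph blood group, was at 14.6, 11.2 and 11.7 FPKM with bryostatin, against 9.19, 10.7 and 7.92 FPKM with DMSO. The groups do not overlap, and bryostatin replicate 1 is the highest and DMSO replicate 3 the lowest. Bryostatin over DMSO, the log2 change was 0.40 ± 0.14 (SE), 1.32-fold higher, with a 95% interval from 0.08 to 0.72 (adjusted p = 0.233 in limma). Without DMSO replicate 3 it was 0.30, with an interval from -0.022 to 0.62, and the interval also took in 0 without bryostatin replicate 1 or DMSO replicate 1. CD151 (ENSG00000177697, chromosome 11, 832843 to 839831) shares 257 exon bases, 6.53% of its merged exons, with POLR2L on the opposite strand. POLR2L, an RNA polymerase subunit, was higher too, at 75.5 ± 9.64 FPKM with bryostatin and 43.1 ± 3.39 FPKM with DMSO (log2 change 0.79, adjusted p = 0.216 in limma). The strand setting of the counting is not given in the sources used here, and the part of POLR2L reads in the CD151 value was not tested.

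CD63, the tetraspanin of late endosomes, lysosomes and exosomes, was at 25.9, 19.97 and 21.2 FPKM with bryostatin, against 18.3, 20.7 and 12.5 FPKM with DMSO. The groups overlap through DMSO replicate 2, and DMSO replicate 3 is well below all other libraries. The log2 change was 0.38 (95% interval -0.06 to 0.83, adjusted p = 0.328 in limma), and 0.18 without DMSO replicate 3. The antisense RNA AC009779.2, which shares 9% of the exon bases of CD63, was at 3.52 ± 0.671 FPKM with bryostatin and 3.23 ± 0.547 FPKM with DMSO.

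CD82, known as the metastasis suppressor KAI1, was at 47.7, 46.3 and 42.9 FPKM with bryostatin, against 65.6, 70.0 and 33.8 FPKM with DMSO. DMSO replicates 1 and 2 lie above all bryostatin libraries and DMSO replicate 3 below all of them. Its log2 change was -0.24 (95% interval -0.84 to 0.37, adjusted p = 0.651 in limma). Without DMSO replicate 3 it was -0.56 and passed (adjusted p = 0.0438), in a fit that called 267 genes in all, 196 higher and 71 lower. Without DMSO replicate 1 or 2 it was -0.09 or -0.05, so the value rests on which DMSO libraries are used.

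CD9, a tetraspanin of cell fusion that also marks plasma cells in mice, was at 1.43, 2.80 and 1.42 FPKM with bryostatin, against 3.01, 1.99 and 2.62 FPKM with DMSO. Bryostatin replicate 2 falls among the DMSO libraries, so the groups overlap. The 113 to 309 reads per library limit its precision, with a counting error of 9.41% at the lowest. On the log2 scale the change was -0.32 (95% interval -0.80 to 0.16, adjusted p = 0.425 in limma), -0.54 without bryostatin replicate 2, -0.21 without bryostatin replicate 3 and -0.52 with voom weights on the recovered reads.

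TSPAN3, which is required for leukaemia stem cells in mouse models of myeloid leukaemia, was at 12.96, 13.46 and 12.84 FPKM with bryostatin, against 15.3, 13.7 and 15.1 FPKM with DMSO. Its groups were tight, with SDs of 0.326 and 0.923 FPKM, and did not overlap, although bryostatin replicate 2 and DMSO replicate 2 nearly met. Bryostatin over DMSO, the log2 change was -0.16 ± 0.08 (SE), 1.11-fold lower, with a 95% interval from -0.34 to 0.03 (adjusted p = 0.338 in limma).

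Across the 10 genes the libraries did not order the same way. DMSO replicate 3 was the lowest library for 3 genes (CD82, CD63 and CD151) but above all bryostatin libraries for CD37 and TSPAN3. Bryostatin replicate 1 was the highest for CD81, CD63 and CD151 and the lowest for CD37 and TSPAN14. The ratio of CD81 to CD37 within a library does not depend on library scaling. It was 0.573, 0.418 and 0.452 with bryostatin, against 0.285, 0.301 and 0.390 with DMSO. That the groups do not overlap here follows from CD81 being higher and CD37 lower in every bryostatin library, so it adds no further observation. This ratio was picked after the values were seen and is given as a description only. The summed FPKM of the 10 genes was 458 ± 82.1 with bryostatin and 478 ± 100 with DMSO, with overlapping libraries.

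**Figure D3:**
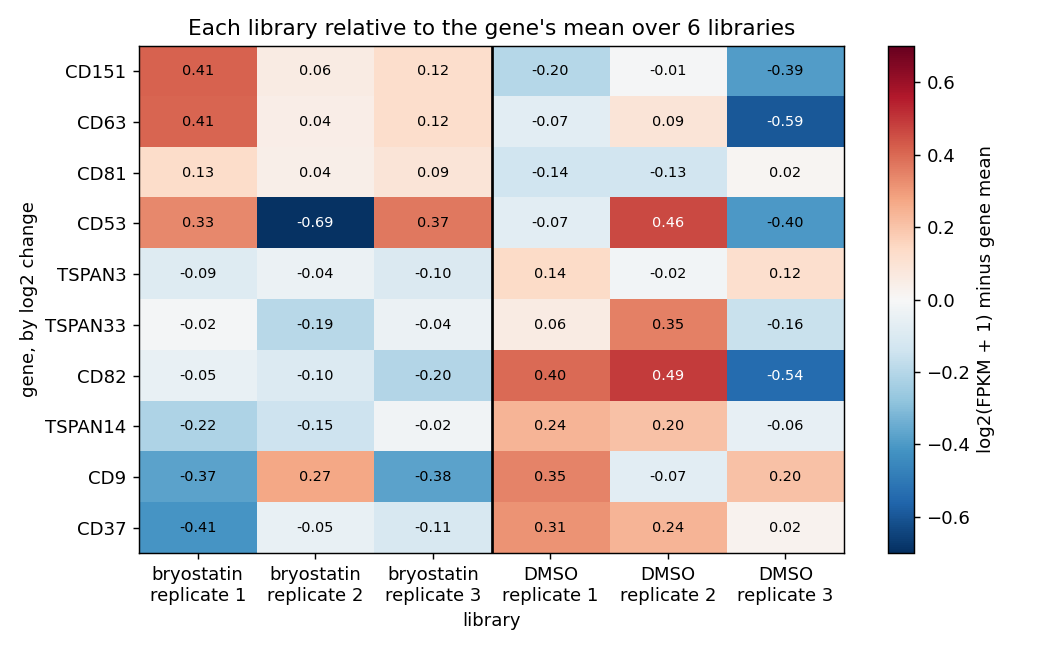
Log2(FPKM + 1) of each gene in each library minus the gene's mean over the 6 libraries, bryostatin left of the line and DMSO right of it, genes ordered by log2 change. CD151 and CD81 are higher, and TSPAN3 and CD37 lower, in every bryostatin library than in any DMSO library, while DMSO replicate 3 reaches -0.59 for CD63 and -0.54 for CD82.

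Over all 6 libraries on the log2(FPKM + 1) scale, changes beyond 2-fold either way lay outside the 95% interval for all 10 genes, and changes beyond 1.5-fold for CD81, TSPAN3, TSPAN14 and TSPAN33. A change of 1.5-fold was not excluded for the others, including CD37 and CD151. For TSPAN14 and TSPAN33 the 1.5-fold limit rests on the setting. The interval of TSPAN14 reached -0.607 with TPM scaling, -0.592 with a block for the replicate number and -0.610 without bryostatin replicate 3. That of TSPAN33 reached -0.603 without bryostatin replicate 1 and -0.593 without bryostatin replicate 3, and all of these lie past 1.5-fold lower. For CD9 the 2-fold limit rests on the added 1: its interval reached -1.14 with a pseudocount of 0.1 FPKM, -1.09 with TPM scaling and -1.15 with voom weights, all past 2-fold lower. With 1 library left out, the interval of CD53 reached -1.08 (without bryostatin replicate 1) and 1.06 (without DMSO replicate 2), and that of CD82 reached -1.04 (without bryostatin replicate 1).

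**Figure D4:**
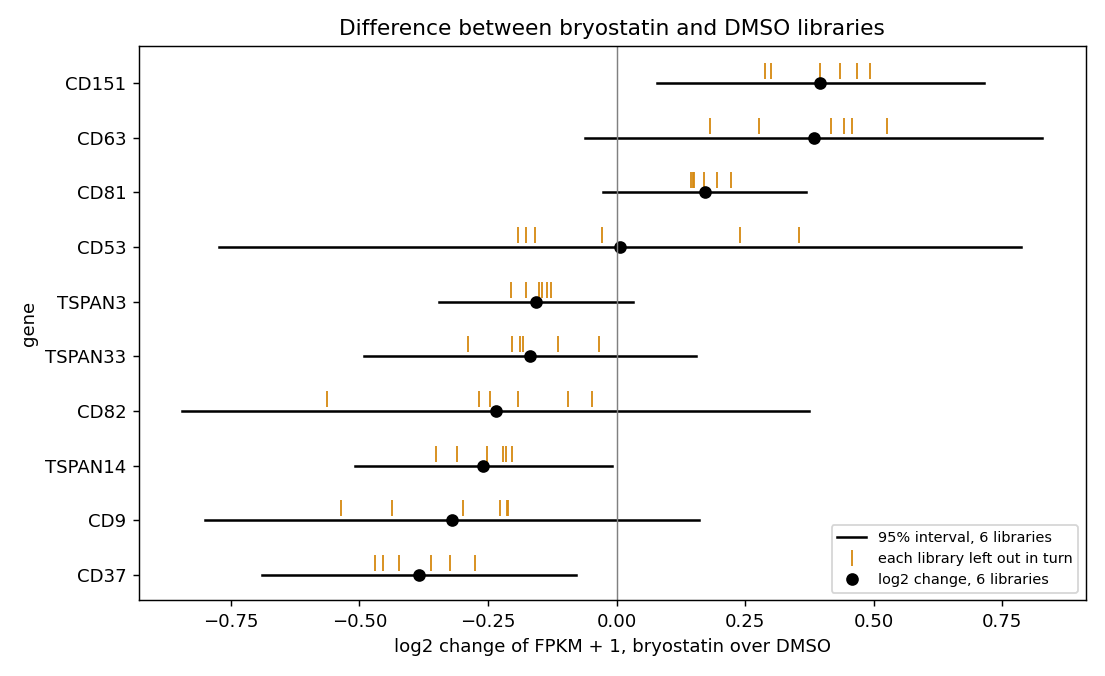
Log2 change of FPKM + 1, bryostatin over DMSO, with its 95% interval over all 6 libraries (black) and the value with each library left out in turn (orange ticks). Over all 6 libraries the intervals of CD37, TSPAN14 and CD151 lie to 1 side of 0, which holds for none of the 3 without bryostatin replicate 1 or DMSO replicate 1, and the ticks of CD53 fall on both sides.

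TSPAN14 and TSPAN33, the TspanC8 genes among the 10, were compared with the rest of that group and with ADAM10. TSPAN14 was at 6.65, 7.05 and 7.75 FPKM with bryostatin, against 9.51, 9.26 and 7.56 FPKM with DMSO. Only DMSO replicate 3 fell within the bryostatin range. The log2 change was -0.26 ± 0.11 (SE), 1.197-fold lower (95% interval -0.51 to -0.01, adjusted p = 0.271 in limma), and -0.35 without DMSO replicate 3 (adjusted p = 0.0826), while the interval took in 0 without bryostatin replicate 1 or 2 or DMSO replicate 1 or 2. TSPAN33, a tetraspanin of activated B cells, was at 9.80, 8.54 and 9.59 FPKM with bryostatin, against 10.3, 12.9 and 8.79 FPKM with DMSO. Its groups overlapped, and the log2 change of -0.17 (adjusted p = 0.529 in limma) was -0.03 without DMSO replicate 2 and -0.29 without DMSO replicate 3.

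Of the other 4 TspanC8 genes, TSPAN15 and TSPAN17 were abundant enough to test, and TSPAN5 and TSPAN10 were not. TSPAN15 was at 4.06, 4.21 and 3.77 FPKM with bryostatin, against 6.21, 5.49 and 4.34 FPKM with DMSO, lower without overlap (log2 change -0.33, adjusted p = 0.245 in limma). TSPAN17 was at 8.12, 7.37 and 8.24 FPKM with bryostatin, against 7.56, 7.84 and 6.14 FPKM with DMSO, with overlap and a log2 change of 0.13. Within the group, TSPAN17 took 28.4%, 27.1% and 28.1% of the summed FPKM with bryostatin and 22.5%, 22.1% and 22.9% with DMSO, a share that does not overlap but was singled out after the values were seen. The protease gene overlapped between the groups: ADAM10 averaged 6.38 ± 0.385 FPKM with bryostatin and 7.07 ± 0.310 FPKM with DMSO (log2 change -0.13, adjusted p = 0.406 in limma), and the TspanC8 sum per ADAM10 was 4.45 ± 0.108 with bryostatin and 4.51 ± 0.496 with DMSO.

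**Figure D5:**
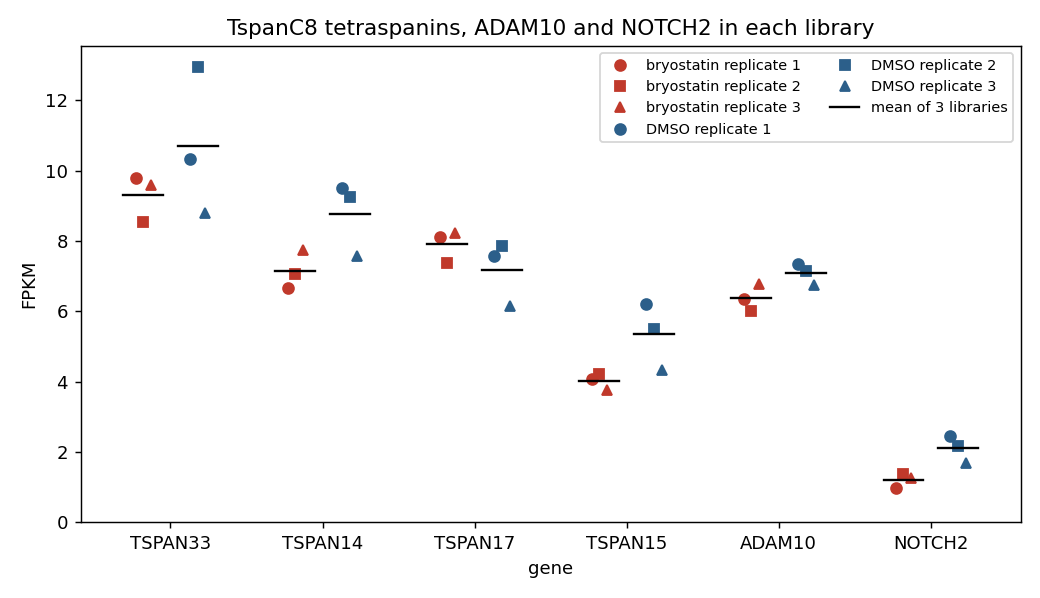
FPKM of the 4 tested TspanC8 genes, of ADAM10 and of its substrate gene NOTCH2 in the bryostatin (red, left) and DMSO (blue, right) libraries, with bars at the mean of 3 libraries. TSPAN15 and NOTCH2 show no overlap between the groups, and TSPAN14 overlaps through DMSO replicate 3 alone.

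Metalloproteases and their substrates held 5 tested genes of 9 listed. All 5 were lower in their mean, 1 of them at an unadjusted p under 0.05, with a median log2 change of -0.14, where 46.1% of all tested genes were lower in their mean and, as given above, 7.18% were lower at that p. That gene, NOTCH2, a receptor cleaved by ADAM10, averaged 1.204 ± 0.201 FPKM with bryostatin and 2.11 ± 0.390 FPKM with DMSO (log2 change -0.49, adjusted p = 0.217 in limma). NOTCH2 has near-identical NOTCH2NL copies, so its reads are uncertain. Of the surface partners of leukocyte tetraspanins, 14 of 18 were tested, 6 higher and 8 lower with a median of -0.07. ITGB7, an integrin chain of gut homing, was the only one at an unadjusted p under 0.05, at 10.9 ± 2.30 FPKM with bryostatin and 14.5 ± 1.94 FPKM with DMSO (log2 change -0.40, adjusted p = 0.265 in limma). None of the 14 passed an adjusted p of 0.05.

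Among intracellular partners, 4 of 5 were tested, 1 higher and 3 lower with a median of -0.16. PRKCB, the kinase reported to join CD53 at the membrane, was at 15.7, 19.5 and 15.9 FPKM with bryostatin, against 28.5, 21.7 and 23.0 FPKM with DMSO, lower without overlap (log2 change -0.49, adjusted p = 0.217 in limma). PRKCA was lower without overlap too, at 2.10 ± 0.291 FPKM with bryostatin and 2.57 ± 0.171 FPKM with DMSO (log2 change -0.21, adjusted p = 0.338 in limma). Of all tested genes, 10.7% were lower without overlap. Endosome and exosome genes that work with CD63 held 7 tested genes of 11, 4 higher and 3 lower with a median of 0.01 and none at an unadjusted p under 0.05. The most abundant were PDCD6IP (ALIX), at 19.3 ± 0.151 FPKM with bryostatin and 20.8 ± 2.14 FPKM with DMSO, and SDCBP (syntenin), which binds CD63, at 17.6 ± 0.769 FPKM with bryostatin and 19.6 ± 1.66 FPKM with DMSO.

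Of the 23 other human tetraspanin genes in the table, 3 had a mean of at least 1 FPKM, 13 had reads at up to 0.449 FPKM and 7 were listed at 0 in all 6 libraries. Those 3 were TSPAN15 and TSPAN17, given above, and TSPAN31, at 2.62 ± 0.367 FPKM with bryostatin and 3.06 ± 0.738 FPKM with DMSO (log2 change -0.15, adjusted p = 0.623 in limma). All 10 genes described here were above that level, so of the 33 tetraspanin genes 13 were tested.

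RefSeq promoter sequences (GRCh38.p14) were found for 6 of the 10 genes, CD53, CD82, CD9, CD63, TSPAN14 and TSPAN33. The 250 bases before a RefSeq start were read for octamer, GC box, AP-1, NF-kB and E-box letters. That start was the nearest to the start of the principal transcript. The distance was 22 bases for CD53, 34 for CD63, 72 for CD82, 144 for TSPAN14, 185 for TSPAN33 and 231 for CD9. Shown are CD53, the most abundant gene, CD82, the gene that passed with 1 library left out, and TSPAN14, the gene with a promoter whose unadjusted p was under 0.05. Capitals mark ATGCAAAT (octamer) and GGGCGG (GC box) on either strand.
CD53: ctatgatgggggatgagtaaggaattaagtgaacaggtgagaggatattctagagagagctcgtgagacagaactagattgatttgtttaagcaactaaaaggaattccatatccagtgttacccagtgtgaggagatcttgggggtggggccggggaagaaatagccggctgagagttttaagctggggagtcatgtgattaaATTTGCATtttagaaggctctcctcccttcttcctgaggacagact
CD82: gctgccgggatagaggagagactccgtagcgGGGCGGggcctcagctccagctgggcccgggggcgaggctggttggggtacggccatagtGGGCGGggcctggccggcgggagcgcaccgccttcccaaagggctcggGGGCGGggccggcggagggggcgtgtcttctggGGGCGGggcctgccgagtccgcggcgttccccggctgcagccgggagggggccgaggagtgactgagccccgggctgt
TSPAN14: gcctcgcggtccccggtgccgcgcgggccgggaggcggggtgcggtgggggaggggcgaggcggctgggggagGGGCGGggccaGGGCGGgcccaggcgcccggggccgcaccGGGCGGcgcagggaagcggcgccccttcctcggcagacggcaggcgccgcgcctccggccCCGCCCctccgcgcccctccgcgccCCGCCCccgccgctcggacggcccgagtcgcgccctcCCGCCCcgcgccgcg
These are chr1:110870960-110871209, chr11:44565413-44565662 and chr10:80454060-80454309, all on the plus strand. The TSPAN14 window runs past the GENCODE 29 start of its gene at 80454166, and its later GC boxes lie inside the gene. The CD9 window begins at 6199696 and its gene at 6199715, so nearly all of that window lies inside the gene. The CD82 gene begins at 44564427, before its window, so all of that window, with its GC boxes, lies inside the gene. The CD53 window ends just past the start of its gene at 110871188. The CD53 window holds 1 octamer, on the reverse strand, and no GC box, and its GC content is 45.2%, against a median of 58.0% over 35116 promoter windows of the same length. The CD82 and TSPAN14 windows hold 4 and 6 GC boxes, with GC contents of 77.2% and 88.0%. An octamer occurs in 1.63% and a GC box in 42.6% of all windows. The NF-kB letters, read as GGG, 5 bases of any kind and CC on either strand, can overlap a GC box. They are in all 6 windows and in 54.4% of all windows, with 1 match in CD53, 8 in CD82, 4 in TSPAN14, 3 in CD63 and 2 each in CD9 and TSPAN33. The AP-1 letters TGANTCA (6.57% of all windows) and the E-box CACGTG (6.34%) are in none of the 6 windows, which says only that these letters are absent from these bases. CD63 and TSPAN33 hold 1 GC box each and CD9 none, and CD53 is the only one of the 6 with an octamer. A match of letters is a description of the sequence and not a binding site.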

How the data were processed

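Polyadenylated RNA of 3 bryostatin and 3 DMSO libraries was sequenced, per the labels' protocols. The deposited values are FPKM for 58735 genes with gene lengths in bases, 1 column per library, made by the authors. The submitters' processing notes name the build hg38, the aligner HISAT2 2.0.5, the counter featureCounts 1.5.0-p3, CASAVA and DESeq2 1.20.0, with no role for each. Strand setting and filters: not given in the sources used here. The product of FPKM and length fell on whole multiples of a step particular to each library (100% of values within 0.01 reads), from which reads per gene and depth were recovered.

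Of these, 11071 genes averaged 1 FPKM or more, all 10 members among them. Their log2(FPKM + 1) values were fitted in R 4.3.3 with limma 3.58.1 (moderated test, intensity trend, no block, two-sided), with Benjamini-Hochberg adjustment over all genes tested and a threshold of 0.05. The fit was also run on simulated reads, in which every gene had the same spread beyond counting error and no library stood apart. These libraries differ in both respects, so the simulation does not show how the fit behaves on them. All 10 members are named, every other tetraspanin above the filter, and of each other list its members with an unadjusted p under 0.05 or, where there were none, the 2 genes of highest mean. ADAM10, PRKCA, POLR2L, TEAD2 and AC009779.2 were named in addition, after their values were seen. The members and lists were chosen with earlier results of these data known. Alternatives were pseudocounts of 0.1 and 0.5, no filter and filters of 0.1 and 5 FPKM, scaling to TPM, by median of ratios or by quantiles, no trend, each library left out, a block for the replicate number and voom weights on recovered reads. Intervals of counts cover counting error only. Principal transcripts and exon overlaps are from GENCODE 29.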

Additional observations from a re-analysis of the deposited data

How the results depend on the processing

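For CD37, CD81, CD82, CD9, CD63, CD151, TSPAN3, TSPAN14 and TSPAN33 the direction held under every alternative run, and no member passed an adjusted p of 0.05 except CD82 without DMSO replicate 3. Scaling by median of ratios hardly altered the deposited values, so it is not a separate check. With it CD37 was at -0.384038, against -0.384069 in the main fit, and 1955 genes had an unadjusted p under 0.05 in limma. CD53 turned to -0.043 with TPM scaling, -0.093 with quantile normalisation and -0.012 with voom weights, and ranged from -0.19 to 0.35 with each library left out. CD82 ranged from -0.56 to -0.048 there. With a filter of 5 FPKM, CD9 was not tested. No gene passed over all 6 libraries (1954 at an unadjusted p under 0.05; 2181 with voom weights, again 0 after adjustment), and 1 gene, RNA5SP82, passed with a pseudocount of 0.1 and with TPM scaling. With each library left out, 0 to 267 genes passed, 267 of them without DMSO replicate 3, and without DMSO replicate 2 the 1 gene was MIR6859-3. These 2 genes were named after their values were seen. With TPM scaling, CD37, TSPAN3 and CD151 still did not overlap between the groups, while CD81 did. With the length of the principal transcript 6 of 10 members kept their place by level, and leaving out any library kept all 10. The median of the 10 changes ran from -0.24 to -0.04 over the alternatives. With the replicate block no gene passed and CD37 had an adjusted p of 0.460, the changes themselves being the same (CD37 -0.38). Deviations of same-numbered libraries from their group means correlated at -0.29, -0.32 and -0.11, and those of the other pairs at -0.06 to 0.32. With 3 libraries per group these correlations are not independent. They cannot show whether same-numbered libraries shared a culture or day. Depth limits CD9 most, at 113 reads in its lowest library.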

Other observations

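CD151 and TSPAN4 are neighbours on chromosome 11, 2976 bases apart on the same strand, yet TSPAN4 was at 0.361 ± 0.106 FPKM with bryostatin and 0.409 ± 0.0529 FPKM with DMSO, with a mean of 47.7 reads per library, far below CD151. CD81 and TSPAN32 lie 57976 bases apart on the same chromosome, and TSPAN32, a tetraspanin of blood cells, had a mean of 1.83 reads per library. CD82, too, lies on chromosome 11, with TSPAN18 at 106101 bases, which was at 0.283 ± 0.133 FPKM with bryostatin and 0.615 ± 0.165 FPKM with DMSO. These pairs were picked from gene positions after the values were seen, and no difference between them was tested.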
